A study of Homo sapiens with 72 samples.

Results

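Untreated NALM6 and REH cells were compared for H3K4me3, the histone mark of active and poised gene starts, measured by Cut&Tag. NALM6 and REH are cell lines grown from human B-cell acute lymphoblastic leukemia (B-ALL). The series labels 72 samples, of which 54 with peak files cover H3K4me2, H3K4me3 and H3K27me3 in Raji, NALM6 and REH cells with and without bryostatin, and 6 of these are the untreated H3K4me3 libraries of NALM6 and REH. Each line has 3 replicates labelled as not treated, the labels name no engineered allele, and they do not say whether the replicates were separate cultures. P-values therefore measure the spread between these libraries, which may be technical, and each subtype is represented by 1 line, so line and subtype cannot be told apart.

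Members were chosen by label. Peaks called by the authors with SEACR in NALM6 replicates 2 and 3 and in REH replicates 1, 2 and 3 were merged wherever they overlapped by at least 1 bp, on chromosomes 1 to 22 and X. This gave 12417 regions. NALM6 replicate 1 was deposited on another scale with shorter peaks and was used for presence only. Of its 6100 peaks, 5861 (96.1%) overlapped one of the regions. The value of a region is its total signal, which is the RPKM coverage summed over the called bases, given here as a multiple of the median taken over the regions that all 5 libraries share. A log2 difference is always REH minus NALM6 after centring each library on that median. With bulk libraries, the share of cells that carry a mark and the amount per cell cannot be told apart.

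H3K4me3 is laid down by the SET1 and KMT2 complexes around transcription starts, mostly at CpG islands, and its breadth and height rise with the activity of a gene. H3K27me3, written by Polycomb, marks silent developmental genes and can sit beside H3K4me3. REH carries the ETV6-RUNX1 fusion, the most common fusion gene of childhood B-ALL. NALM6 belongs to the DUX4-rearranged subtype, in which a DUX4 copy is moved next to an enhancer of the immunoglobulin heavy chain locus. Both lines are arrested at the precursor B cell stage.

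The sequences upstream of 8 starts are given as examples of promoters that separated the lines. Chosen after the values were seen, they are the 250 bases before the RefSeq start (GRCh38.p14), written 5′ to 3′ on the strand of the gene, with every CG dinucleotide in capitals. Over the 35116 RefSeq promoters of the same length the median number of CG was 11, and 93.9% held at least 1. Taking for each gene its promoter with the most CG, the median was 26 for genes called in REH only and 22 in NALM6 only. It was 25 for genes called in all 5 libraries and 7 for genes without a peak. PTPRK and FLT3 (starts called in REH only) and IRF4 and STC2 (called in NALM6 only) are CG-rich, with 38, 26, 28 and 22. EPOR and BIRC7 (REH only) hold 10 each and VPREB1 (NALM6 only) holds 8. The internal ERG start, whose region was higher in REH, holds 3. The windows are chr6:128520600-128520849 for PTPRK, chr13:28100577-28100826 for FLT3, chr19:11384315-11384564 for EPOR, chr20:63235655-63235904 for BIRC7, chr6:391502-391751 for IRF4, chr5:173328415-173328664 for STC2, chr22:22244536-22244785 for VPREB1 and chr21:38498505-38498754 for ERG.
PTPRK: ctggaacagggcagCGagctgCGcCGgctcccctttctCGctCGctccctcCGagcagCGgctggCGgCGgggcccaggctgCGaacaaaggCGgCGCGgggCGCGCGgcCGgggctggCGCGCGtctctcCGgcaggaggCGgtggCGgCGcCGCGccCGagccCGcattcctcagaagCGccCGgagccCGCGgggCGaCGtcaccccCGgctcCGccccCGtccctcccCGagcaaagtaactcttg
FLT3: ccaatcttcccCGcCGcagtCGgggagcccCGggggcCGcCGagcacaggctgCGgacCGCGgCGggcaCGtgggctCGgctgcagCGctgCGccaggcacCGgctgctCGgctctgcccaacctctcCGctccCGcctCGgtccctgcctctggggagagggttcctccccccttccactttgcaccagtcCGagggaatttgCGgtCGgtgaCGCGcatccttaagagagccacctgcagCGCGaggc
EPOR: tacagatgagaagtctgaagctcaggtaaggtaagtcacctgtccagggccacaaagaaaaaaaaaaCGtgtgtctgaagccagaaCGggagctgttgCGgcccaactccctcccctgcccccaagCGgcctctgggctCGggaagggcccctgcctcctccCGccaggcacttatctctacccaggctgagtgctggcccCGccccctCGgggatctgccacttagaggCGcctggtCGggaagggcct
BIRC7: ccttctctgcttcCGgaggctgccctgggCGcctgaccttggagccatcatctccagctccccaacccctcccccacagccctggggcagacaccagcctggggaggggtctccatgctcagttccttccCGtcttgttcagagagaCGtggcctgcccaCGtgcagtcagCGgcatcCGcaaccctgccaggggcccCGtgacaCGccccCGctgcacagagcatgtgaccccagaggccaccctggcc
IRF4: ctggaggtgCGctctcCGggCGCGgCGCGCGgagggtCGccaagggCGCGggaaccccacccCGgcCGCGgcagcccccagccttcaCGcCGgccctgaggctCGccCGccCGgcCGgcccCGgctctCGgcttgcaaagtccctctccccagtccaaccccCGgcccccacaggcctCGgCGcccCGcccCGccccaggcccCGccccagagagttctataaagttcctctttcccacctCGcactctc
STC2: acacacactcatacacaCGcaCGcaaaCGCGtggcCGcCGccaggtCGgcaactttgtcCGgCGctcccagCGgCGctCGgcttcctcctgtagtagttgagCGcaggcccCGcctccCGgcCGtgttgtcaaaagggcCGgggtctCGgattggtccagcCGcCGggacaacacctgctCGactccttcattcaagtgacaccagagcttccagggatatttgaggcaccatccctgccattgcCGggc
VPREB1: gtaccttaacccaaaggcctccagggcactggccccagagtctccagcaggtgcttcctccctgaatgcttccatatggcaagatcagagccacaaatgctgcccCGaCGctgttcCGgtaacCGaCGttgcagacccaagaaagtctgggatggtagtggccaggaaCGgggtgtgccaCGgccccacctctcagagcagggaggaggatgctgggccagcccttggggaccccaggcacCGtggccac
ERG: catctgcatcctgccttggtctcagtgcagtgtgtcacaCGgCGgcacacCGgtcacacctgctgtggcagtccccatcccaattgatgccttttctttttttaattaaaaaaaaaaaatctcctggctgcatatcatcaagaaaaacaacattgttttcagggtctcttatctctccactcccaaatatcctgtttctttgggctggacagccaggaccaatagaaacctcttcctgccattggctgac

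The libraries were read to between 10.2 M (REH replicate 3) and 27.9 M (REH replicate 1) mapped reads, as worked out from the step between neighbouring RPKM values in 10 bp bins, with every maximum within 0.00837 steps of a whole number. Peak numbers ran from 7509 in REH replicate 2 to 11809 in REH replicate 1, with 9698 and 10666 in NALM6. The smallest called peak stood at 0.125 and 0.0657 multiples in NALM6 replicates 2 and 3 and at 0.0537, 0.442 and 0.242 in REH replicates 1, 2 and 3. A missing peak in REH replicate 2 therefore only says that the signal was under a threshold higher than in the other libraries. Libraries of 1 line correlated at 0.962 to 0.991 over the 7033 regions called in all 5, and libraries of different lines at 0.778 to 0.799. The median standard error of a difference was 0.10 on the log2 scale, and the standard deviation of the differences was 0.54.

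A peak lay within 1 kb of an annotated start in 51.5% and 54.0% of the 19970 protein-coding genes in NALM6 replicates 2 and 3, and in 58.4%, 42.4% and 49.5% in REH replicates 1, 2 and 3. The means were 52.7% ± 1.70 (SD, n = 2) and 50.1% ± 8.0 (SD, n = 3). The REH libraries lay on both sides of those of NALM6, and an exact two-sided permutation test gave p = 0.8, where 0.2 is the smallest p this design allows. The difference of -2.65 percentage points turned to 1.18 without REH replicate 2, the library with the fewest peaks.

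The lines differed at a large share of the starts both use. Of the 7033 regions called in all 5 libraries, 1656 (23.5%) were higher in REH and 1491 (21.2%) were higher in NALM6 by limma at an adjusted p of 0.05. Differences of at least 2-fold, a criterion added after the values were seen, were fewer and leaned to REH, with 397 regions (5.64%) higher there and 125 (1.78%) higher in NALM6. How low a tested value could lie differed between the lines, since a region had to reach 0.442 multiples in REH replicate 2 to be tested but only 0.125 and 0.0657 in NALM6. Without REH replicate 2 the 2-fold counts were 432 and 196, and with quantile normalization they were 241 and 137. Without a fold requirement, 1217 and 742 regions passed when NALM6 replicate 2 was left out and 1301 and 981 when NALM6 replicate 3 was. The lone NALM6 library was then assumed to vary like those of REH. The mean signal per called base in place of the sum gave 636 and 288.

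**Figure D1:**
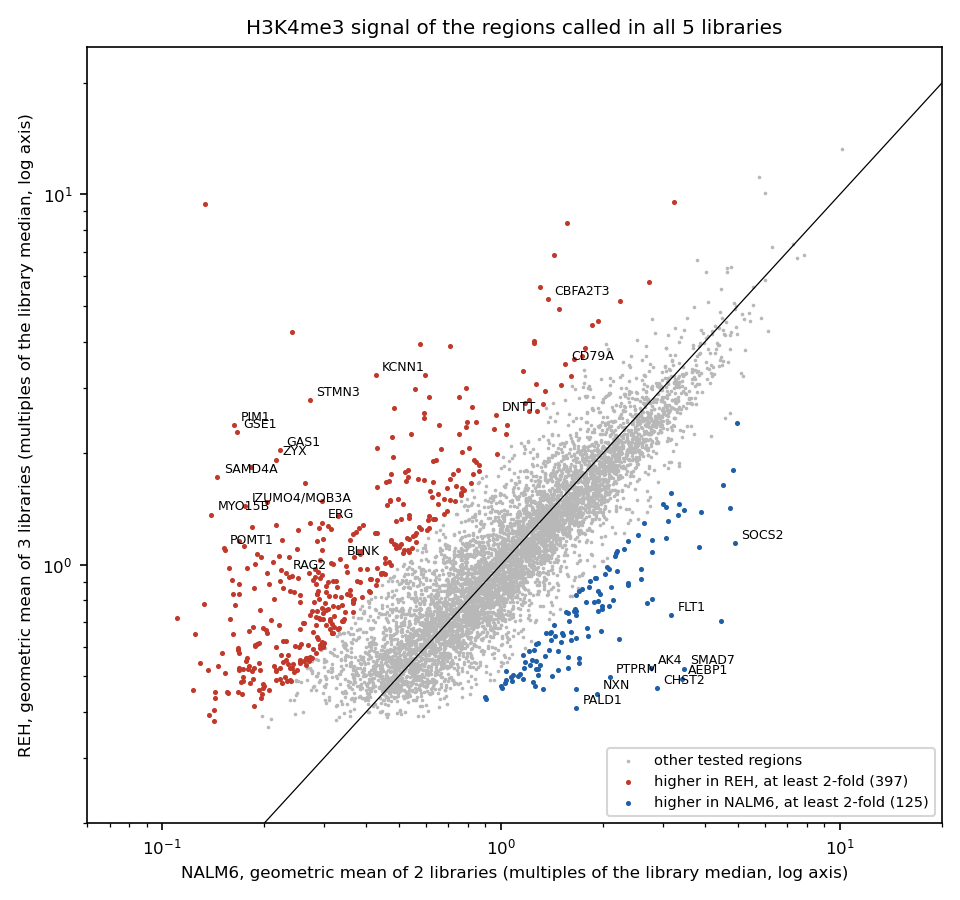
Each point is 1 of the 7033 regions called in all 5 libraries, with the geometric mean of 2 NALM6 libraries on the x axis and of 3 REH libraries on the y axis, in multiples of the library median on log axes. Red and blue points passed the adjusted p with at least 2-fold difference (397 and 125 regions). The cloud is cut off at a higher level in REH than in NALM6, where the smallest called peaks stood at 0.125 and 0.0657.

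At protein-coding starts, the regions that rose most in REH carried little mark in NALM6. PIM1, a serine/threonine kinase and proto-oncogene (chr6:37168901-37172760), stood at 0.138 and 0.193 in NALM6 and at 2.26, 2.29 and 2.60 in REH. The difference was 3.87 ± 0.14 (SE) on the log2 scale with adjusted p = 1.1e-08. GSE1 stood at 0.209 and 0.133 in NALM6 and at 2.31, 2.43 and 2.12 in REH, a difference of 3.77. SAMD4A, an RNA-binding repressor of translation, stood at 0.159 and 0.134 against 1.77, 1.76 and 1.65. Regions were ranked only where the lines did not overlap, so in each the highest NALM6 library lay below the lowest REH library. STMN3, of the microtubule-binding stathmin family, differed by 3.35, MYO15B by 3.29, GAS1, a growth arrest protein of the membrane, by 3.2 and ZYX, the focal adhesion protein zyxin, by 3.15. The start shared by IZUMO4 and MOB3A differed by 3.03, KCNN1, a calcium-activated potassium channel, by 2.93 and POMT1, a protein O-mannosyltransferase, by 2.86.

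The regions with the largest differences towards NALM6 were chosen in the same way. AEBP1, with isoforms in the extracellular matrix and in the nucleus (chr7:44100301-44108640), stood at 3.41 and 3.41 in NALM6 and at 0.514, 0.462 and 0.502 in REH, a log2 difference of -2.79 ± 0.08 (SE, adjusted p = 4.9e-09). Its called length was 8220 bp in NALM6 and 2307 bp in REH on average. SOCS2, a suppressor of cytokine signalling, stood at 5.18 and 4.65 against 1.30, 1.26 and 0.906. Every REH value of these starts lay under every NALM6 value, as the choice required. The value of AEBP1 in REH replicate 2 lay close to the smallest peak called there (0.442). SMAD7, an inhibitor of TGF-beta signalling, differed by -2.73, although REH replicate 3 (0.271) stood apart from the other REH libraries (0.737 and 0.718). CHST2, a sulfotransferase, differed by -2.63, AK4, a mitochondrial adenylate kinase, by -2.40 and FLT1, a VEGF receptor, by -2.12. NXN, the redox protein nucleoredoxin, differed by -2.10, PTPRM, a receptor tyrosine phosphatase, by -2.07 and PALD1 by -2.03. All 10 regions of this direction, of which 9 are named, had a peak in NALM6 replicate 1, against 1 (ZYX) of the 10 with the largest difference towards REH and 72.4% of all tested regions.

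Some starts were called in 1 line only. Among the 12417 regions, 372 (3.0%) were called in 3 of 3 REH and 0 of 2 NALM6 libraries, and 341 (2.75%) in 2 of 2 NALM6 and 0 of 3 REH libraries. Only 1 of the 372, but 91 of the 341, were covered by a peak of NALM6 replicate 1, against 44.9% of all 12417 regions. The REH regions were the stronger, with a median of 0.741 multiples in REH against 0.334 in NALM6 for those of NALM6. A region of REH had to pass the threshold of REH replicate 2 (0.442). Leaving that library out gave 616 regions of REH. Leaving out REH replicate 1, the deepest library, gave 1336 regions of NALM6, and leaving out NALM6 replicate 2 gave 630. Regions of REH lay within 1 kb of a protein-coding start in 84.9% and away from protein-coding and lncRNA starts in 6.72%, close to the 86.9% and 7.34% of all regions. For the regions of NALM6 these were 68.0% and 22%.

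Among autosomal regions at protein-coding starts, the first by total signal of those called in REH only lay at ELFN1, which encodes a synaptic adhesion protein, with 5.99, 6.43 and 7.02 multiples and no peak in NALM6. IGF2BP1, an RNA-binding protein of fetal tissue (chr17:48994531-49001400), stood at 4.25, 4.31 and 4.52. A single region over the cytokine genes LTA, TNF and LTB (chr6:31571081-31583510) stood at 3.82, 4.09 and 3.97. NETO1, CMTM3, TENM4, AGPAT3 and EFNB2 followed with values from 2.58 to 3.33 in every REH library. These 8 regions had no peak in any of the 3 NALM6 libraries, and replicates 2 and 3 called peaks down to 0.125 and 0.0657.

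By the same measure the first in NALM6 was STC2, a secreted glycoprotein hormone, with 4.11 and 3.89. IRF4, a transcription factor of late B cell and plasma cell stages (chr6:390781-395210), stood at 4.04 and 3.89. VLDLR, a lipoprotein receptor, stood at 3.43 and 3.18, and AGAP1, a GTPase-activating protein of Arf factors, at 3.26 and 3.07. GPHN (2.58 and 2.54), MPPED2 (2.59 and 2.48), VPREB1 (2.48 and 2.49) and the start shared by FKBP14 and PLEKHA8 (2.41 and 2.20) completed the 8. All 8 had a peak in NALM6 replicate 1 and none in a REH library. H3K27me3 peaks covered the IRF4 region in all 3 REH libraries and in no NALM6 library. The values of all 8 exceed the highest REH threshold of 0.442.

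The DUX4-like repeats set NALM6 apart. A pair of regions of the long arm of chromosome 10, chosen after their values were seen, were called in NALM6 only and covered whole repeat arrays away from any tested gene start. The first (chr10:133664431-133685490, 21.1 kb) held 7 annotated DUX4-like pseudogenes, DUX4L20 among them, and stood at 2.60 and 2.70. The second (chr10:133740601-133761680) also held 7, DUX4L10 among them, and stood at 2.67 and 2.74. No REH library had a peak there, nor had NALM6 replicate 1 or any H3K4me2 library of either line. In bryostatin-treated cells 1 of 2 NALM6 libraries and no REH library had one. On chromosome 4 a peak over DUX4 itself (0.0771) and over DUX4L7 (0.0687) was called in NALM6 replicate 3 only. Both lie near the smallest peak called in that library (0.0657). They lie under the smallest peaks of NALM6 replicate 2 (0.125) and of REH replicates 2 (0.442) and 3 (0.242). Missing peaks in these libraries therefore do not set the lines apart on chromosome 4, and only REH replicate 1 (0.0537) called smaller peaks. The copies on both chromosomes are nearly identical, so their reads may be placed on any of them and the copy that carries the mark is uncertain.

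The heavy chain locus differed as well. The region over IGHM and 4 joining segments (chr14:105852041-105864520), also singled out after its values were seen, stood at 30.5 and 31.6 in NALM6 and at 6.02, 6.86 and 10.8 in REH. The difference was -2.02 ± 0.23 (SE, adjusted p = 3.6e-05) and -2.19 in bryostatin-treated libraries, while H3K4me2 differed by 0.20 there. The largest difference of all tested regions was in the other direction, over the long noncoding RNA gene BLACE, named for its expression in B-ALL, and LINC03010 (chr7:155357361-155384360). It stood at 0.140 and 0.127 in NALM6 and at 8.60, 9.23 and 10.5 in REH, a log2 difference of 6.14 ± 0.10 (SE, adjusted p = 1.8e-11).

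Genes listed from general knowledge as high in ETV6-RUNX1 leukemia were marked in REH. All 12 on that list had a region, and 7 of them were called in REH only, against 2.64% of the 11952 protein-coding genes with a region. SOX11, a neural developmental transcription factor, stood at 2.75, 2.57 and 2.42, PTPRK, a receptor tyrosine phosphatase, at 1.94, 2.05 and 1.95, and EPOR, the erythropoietin receptor, at 0.673, 0.635 and 0.598. IGF2BP1, BIRC7, ARHGEF4 and CLIC5 were the others, and no NALM6 library had a peak at any of the 7. The tested members, KCNN1 (2.93) and TCFL5 (0.72, adjusted p = 0.00014), were both higher in REH, and 4.57% of the 8103 tested gene starts were higher in REH by at least 2-fold as KCNN1 was. DSC3 had a peak in 2 REH libraries, PIK3C3 in 2 REH and 1 NALM6, and TERF2 in 2 of each.

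Of 8 genes listed as high in DUX4-type leukemia, CD2, CLEC12A and CLEC12B had no peak within 1 kb of a start in any library. AGAP1 was called in NALM6 only (1.78% of genes with a region were), and CHST2 (-2.63), PTPRM (-2.07) and CCNJ (-0.45, adjusted p = 0.00071), a cyclin, were higher in NALM6, as were 21.8% of tested gene starts, 1.67% by at least 2-fold. ERG, an ETS transcription factor, went the other way. Its internal start (chr21:38493201-38500010) stood at 0.306 and 0.285 in NALM6 and at 1.43, 1.32 and 1.16 in REH, a difference of 2.13 ± 0.11 (SE, adjusted p = 1.1e-07). No region lay at its upstream start. H3K4me2 differed in the same direction by 3.08. The window of chromosome 21 that holds ERG was higher in REH as a whole (median 0.59), and its part in the ERG value was not tested.

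Genes of pre-B cell receptor signalling and recombination parted between the lines. Of the 13 genes listed, 10 were tested, 8 of them were higher in REH against 21.8% of all tested starts, and SYK (-0.49) was higher in NALM6. The median was 1.10, against -0.03 for all tested starts. RAG1 and RAG2 form the recombinase of immunoglobulin genes. RAG1 stood at 1.18 and 1.32 in NALM6 and at 3.97, 3.76 and 4.34 in REH (1.69, adjusted p = 1.2e-07). RAG2 stood at 0.318 and 0.171 against 1.01, 0.978 and 0.863. DNTT, the template-free polymerase of junctions, differed by 1.40, BLNK, an adaptor of the receptor, by 1.63, and the receptor chains CD79A and CD79B by 1.17 and 1.01. VPREB1 and IGLL1 encode the surrogate light chain, and they parted. VPREB1 was called in NALM6 only, while IGLL1 stood at 4.97 and 4.87 against 4.52, 4.75 and 5.83 with no call (adjusted p = 0.885). BTK, a kinase of the receptor, was called in both NALM6 libraries (0.510 and 0.444) and in REH replicate 1 (0.316), as was the adaptor LCP2 (0.252 and 0.216, and 0.266).

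Of 19 precursor B cell markers 18 had a region, where 11952 of all 19970 protein-coding genes had one and 8018 had none. Of the markers, 15 were called in all 5 libraries, 1 in NALM6 only and 2 in some libraries. Most were therefore marked in both lines. Of the 15 tested, 10 were higher in REH and 2 in NALM6, against 21.8% of all tested starts each, and the 2 were MME, the antigen CD10 (-0.54), and CD24 (-0.43). RAG1, RAG2, DNTT, BLNK, CD79A and CD79B are among these 10 and were also counted with the recombination genes above, so the lists overlap. CD22, a surface lectin of B cells, stood at 0.238 and 0.322 in NALM6 and at 0.531, 0.542 and 0.474 in REH, a difference of 0.89 ± 0.15 (SE, adjusted p = 0.00063). Markers of other lineages were mostly without a peak, which held for 9 of 12 of T cells, 7 of 8 of NK cells, 9 of 12 of myeloid cells, 7 of 8 erythroid and all 7 epithelial genes. EPOR and BCL11B were called in all REH and no NALM6 libraries, and the T cell gene CD247 in both NALM6 (0.377 and 0.355) and 2 REH libraries (0.376 and 0.330). Among 12 genes of mature B and plasma cells, IRF4 was called in NALM6 only and XBP1 was higher there (-0.38), a call lost with the sign turned (0.22) by the mean signal per base. SDC1, the plasma cell antigen CD138, stood at 0.945, 0.833 and 0.584 in REH and had a peak in NALM6 replicate 3 only (0.0680).

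Transcription factors of the B lineage went both ways. Of 31 listed, 23 were tested, 6 were higher in REH and 8 in NALM6, against 21.8% of all tested starts in each direction, and BCL6 alone passed 2-fold (1.02). H3K4me2 at BCL6 differed the other way (-0.50). PAX5, the commitment factor of the lineage, stood at 10.4 and 9.97 in NALM6 and at 12.3, 12.9 and 14.6 in REH, and missed the threshold (0.38, adjusted p = 0.058). EBF1 (0.40), TCF3 (0.69), IKZF1 (0.48), ETS1 (0.50) and SPI1 (0.44) were higher in REH. MYC (-0.63), IKZF2 (-0.84), TCF4 (-0.45), BACH2 (-0.39), MEF2D (-0.32), POU2F1 (-0.30), SOX4 (-0.27) and ELF1 (-0.22) were higher in NALM6. IRF4 and IKZF3 were called in NALM6 only. IKZF3 stood at 0.221 and 0.185, which is under the threshold of 2 REH libraries.

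The genes of the REH fusion were looked up after other values had been seen, as were ERG, MSH6 and KCNK12. ETV6 stood at 1.53 and 1.22 in NALM6 and at 0.501 and 0.333 in REH replicates 1 and 3, with no peak in REH replicate 2. RUNX1 was higher in REH at its internal start (2.14 and 1.95 against 3.89, 3.84 and 4.14, a difference of 0.95, adjusted p = 4.6e-06). At its other start the values were 0.989 and 0.901 against 0.976, 0.945 and 0.771, a difference of -0.08 that did not pass. H3K4me2 differed by -0.008 at the internal start and by 1.25 at the other. The 80 tested regions of chromosome 21 had a median H3K4me3 difference of 0.38, and its part in the RUNX1 value was not tested. CBFA2T3, a corepressor of the RUNX1 partner family, stood at 1.37 and 1.38 against 4.89, 5.25 and 5.49 (1.92, adjusted p = 3.3e-08).

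Several developmental genes and receptors were called in REH only. HOXA3, HOXA4, HOXA6, HOXA9 and HOXA13, homeobox genes of position and of stem cells, were covered by regions called in REH only, at 0.585 to 1.35 multiples. Of 39 HOX genes 7 were called in REH only, HOXC4 among them, none in NALM6 only, and 29 had no peak. The HOXA genes among the 7 rest on 5 neighbouring regions of 1 cluster, and HOXA3 and HOXA6 share 1 of these. The 7 are therefore not separate observations. Of all genes with a region 2.64% were called in REH only and 1.78% in NALM6 only, and 8018 of all 19970 genes had no peak. FLT3, a growth factor receptor of early progenitors, stood at 1.10, 1.03 and 1.32 in REH with no peak in NALM6. IFNGR2, a chain of the interferon gamma receptor on chromosome 21, was higher in REH (1.12). The 80 tested regions of that chromosome had a median of 0.38, and its part in the IFNGR2 value was not tested. Of 131 developmental transcription factors 92 had no peak, 7 were called in REH only, FOXD1, IRX3 and POU3F3 among them, and PAX8 and FOXL1 in NALM6 only. The 7 and 2 are out of 39 with a region, to be read against the same 2.64% and 1.78%.

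Among genes of cell death and immune recognition the calls went both ways. BCL2L1, which encodes the survival protein BCL-XL, stood at 0.611 and 0.621 in NALM6 and at 1.58, 1.62 and 1.54 in REH (1.36, adjusted p = 2.4e-07). BAK1 (0.93), BBC3 (0.96) and BCL2 (0.45) were also higher in REH, and MCL1 (-0.32) and PMAIP1 (-0.49) in NALM6. CDKN1A, the p21 inhibitor of the cell cycle, was higher in REH (1.03), and CDKN1C was called there only. Of 15 MHC class I genes 13 were tested, 3 of them higher in REH and 4 in NALM6, where 21.8% of all tested starts were called each way. MICA (1.14), HLA-F (0.74) and HLA-C (0.28) were higher in REH and B2M (-0.47), TAP1 and PSMB9 (1 shared region, -0.32) and HLA-E (-0.24) in NALM6. Of 12 class II genes 10 had a region, and 7 were called in both NALM6 libraries and in 1 or 2 of REH, at levels up to 0.762. REH replicate 2, with its threshold of 0.442, had none of these 7. Of all 12417 regions, 995 were called in both NALM6 and 1 REH library, and 1275 in both NALM6 and 2 REH libraries. TNFRSF10A, a receptor of the death ligand TRAIL, was called in REH only. The integrins ITGB1 (-1.03) and ITGA5 (-0.83), which together bind fibronectin, were higher in NALM6. MEN1, a subunit of KMT2 complexes that write the mark, was higher in REH (1.06), and of the 17 writers and erasers tested 1 was higher in REH, 4 in NALM6 and 12 had no call.

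Of 67 tested ribosomal protein genes 6 were higher in REH and 7 in NALM6, with a median of -0.07, where 21.8% of all tested starts were called in each direction. Of 94 tested zinc finger genes of chromosome 19, 16 and 20 were.

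Stretches of neighbouring regions also moved together, seen in windows of 5 Mb that were added after the values were seen. The median difference of 256 windows with at least 10 tested regions lay between -0.35 and 0.42, except for 6. On chromosome 3 from 35 to 60 Mb, 71 of 74 tested regions were lower in REH, with a median of -0.92, or 0.527 times the NALM6 signal, against -0.05 for the other 269 of that chromosome. On chromosome 21 from 35 to 45 Mb, 35 of 37 regions were higher in REH with a median of 0.59, and on chromosome 22 from 45 Mb, 25 of 32 with 0.53. In H3K4me2 the medians were -1.06 and -0.98 in the windows of chromosome 3 from 45 to 55 Mb and 0.61 and 0.44 in those of chromosome 21, but in the window of chromosome 22 from 45 to 50 Mb it was -0.00. Copy number was not measured, and its part in these medians was not tested.

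Loci often lost in B-ALL were also looked at. Neither line had a peak between ACER2 and CAAP1 on chromosome 9 (chr9:19410431-26891390, 7.48 Mb), which holds CDKN2A, CDKN2B and MTAP among 28 protein-coding genes, in the 6 untreated and 5 treated H3K4me3 libraries analysed. H3K4me2 had 0 to 4 peaks per library there. H3K27me3 had 2 and 0 peaks in NALM6 replicates 2 and 3 and 120, 16 and 4 in REH replicates 1, 2 and 3. On chromosome 2 the mismatch repair gene MSH6 stood at 0.677 and 0.631 in NALM6 and at 1.59, 1.62 and 1.45 in REH (1.25, adjusted p = 9.3e-07). The channel gene KCNK12 on the same arm stood at 2.60, 2.65 and 2.96 in REH with no peak in NALM6. NR3C1, the glucocorticoid receptor, was higher in REH (1.20, adjusted p = 1.8e-06).

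The line difference was measured again in libraries that the comparison did not use. In cells treated with 1 nM bryostatin, a protein kinase C modulator, 664 of 4216 regions (15.7%) were higher in REH and 888 (21.1%) in NALM6, and 1 NALM6 library there had 4387 peaks only. Of the 125 regions at least 2-fold higher in untreated NALM6, 110 were tested there, all 110 had the same direction and 107 passed. Of the 397 of REH only 29 were tested, and 28 had the same direction and passed. The exception was RAG1, with -0.35, which did not pass (adjusted p = 0.0776). Of the 372 regions called in REH only, 341 had the same pattern in treated cells, as had 47 of the 341 of NALM6, and none had the opposite one.

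In untreated H3K4me2 libraries 1304 of 8075 regions (16.1%) were higher in REH and 1426 (17.7%) in NALM6. Of the 2-fold regions of REH, 307 were tested there, 269 had the same direction and 190 passed, with a median of 0.48. For those of NALM6 these numbers were 117, 104 and 83, with a median of -0.59. The differences in H3K4me2 were smaller than in H3K4me3, by which the regions had been chosen and whose medians there were 1.40 and -1.24. At FLT1 and SOCS2 H3K4me2 was higher in REH (0.59 and 0.78), opposite to H3K4me3. At BCL6 and CDKN1A, where H3K4me3 was higher in REH, H3K4me2 was higher in NALM6 (-0.50 and -0.55). Of the regions called in REH only, 310 had H3K4me2 peaks in all REH and no NALM6 libraries, and 148 of those of NALM6 had the reverse. At IRF4 and VPREB1 H3K4me2 was called in all 5 libraries and was higher in NALM6 by 1.00 and 2.10 on the log2 scale.

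H3K27me3 peaks overlay many starts that were called in the other line. In NALM6 replicates 2 and 3, 42.5% and 36.0% of the regions called in REH only carried an H3K27me3 peak, against 10.3% and 7.36% of all 12417 regions. In the REH libraries the share was 15.9% to 24.7%, against 6.0% to 8.64% of all regions. Of the regions of NALM6, 11.7% to 20.5% carried the peak in REH libraries and 6.74% and 10.3% in NALM6. The H3K27me3 libraries ranged from 7209 to 48473 peaks, so shares were not compared between libraries. Among the 10 named regions highest in NALM6, 6 (SMAD7, CHST2, AK4, FLT1, SOCS2 and NXN) had an H3K27me3 peak in all 3 REH libraries and in neither NALM6 library. Among the 10 highest in REH, 5 (PIM1, GSE1, STMN3, MYO15B and KCNN1) had it in both NALM6 libraries and in no REH library. Of all 7033 tested regions, 4.69% and 2.83% carried an H3K27me3 peak in NALM6 replicates 2 and 3. In the REH libraries 1.83% to 2.94% of them did. The share of tested regions with either joint pattern was not counted.

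Base composition was described at the centre of the regions. The 300 bp around the maximum had a median GC content of 74.0% in regions called in REH only, 67.7% in those of NALM6 and 70.0% in all regions, with 34, 24 and 29 CG dinucleotides. Over tested regions Spearman's rho of the difference with GC content was 0.04, and with the mean level it was -0.21, which is a description over regions that share libraries. The ETS core CCGGAAG, counted on both strands, was in 3.49% of the windows of REH, 9.09% of those of NALM6 and 13.0% of all. The RUNX core TGTGGT was in 8.06%, 9.38% and 8.30%, and the E-box CAGGTG in 21.2%, 26.4% and 23%. The DUX4 core TAATCTAAT was in 1, 0 and 3 windows. The letters mark no bound site.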

How the data were processed

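H3K4me3 was profiled by Cut&Tag in untreated NALM6 (replicates 1, 2 and 3) and REH (replicates 1, 2 and 3) cells. The deposited peak files hold, per the file contents, a total and a maximum signal per peak (coverage, RPKM in 10 bp bins except for NALM6 replicate 1), which the authors made with Trim Galore, Bowtie2 (hg38) and SEACR in stringent mode, each library on its own. Versions are not given in the sources used here.

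Overlapping peaks were merged and their totals summed. Log2 values were centred on the regions called in all 5 libraries, and these were tested with limma 3.58.1 (R 4.3.3, lmFit and eBayes with trend, two-sided, Benjamini-Hochberg over all 7033). Starts were taken from GENCODE 44 within 1 kb. The limma step was tested on simulated data. Python 3.11.15, pandas 2.3.3, scipy 1.17.1 and pysam 0.24.0 were used otherwise.

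Members, lists and tests were chosen with earlier results of these data known. Named genes were the 10 autosomal start regions with the largest difference in each direction among those past an adjusted p of 0.05 without overlap of the lines, the 8 per line with the highest signal among those called in 1 line, and up to 6 members per list, with CD22 always. Some of these are not reported here. Alternatives covered signal column, scaling, filters, merging, thresholds, libraries and replicate number as a block. The deviations of same-numbered replicates were correlated, which cannot decide on a pairing with 2 NALM6 libraries. The smallest called peak differed between libraries and did not follow depth alone. It stood at 0.442 in REH replicate 2 (18.8 M mapped reads) and at 0.125 in NALM6 replicate 2 (18.3 M). The cause was not tested.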

Additional observations from a re-analysis of the deposited data

How the results depend on the processing

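The counts of tested regions (1656 higher in REH, 1491 in NALM6, at least 2-fold 397 and 125) moved by over 1.5 times under these settings, given in the same order. Mean signal per base gave 636, 288, 241 and 67, and 897 of the 3147 calls (28.5%) were also called there. The peaks above the median of each library gave 729, 676, 47 and 20, the regions above the median signal 656, 958, 97 and 67, and adding NALM6 replicate 1 gave 212, 152 and 101. Maximum signal gave 794 higher in NALM6, no centring 1048 in REH, quantile normalization 241 at least 2-fold in REH, and regions called in most libraries 195 at least 2-fold in NALM6. Fewer regions were tested above the medians and with NALM6 replicate 1 and more (8380) among those called in most libraries, and the cause of the other changes was not tested. Leaving out 1 library gave 1217 to 1897, 742 to 1935, 390 to 432 and 122 to 196. The 2-fold rule and leaving out shifted windows (1605 and 1443) were added after seeing the data.

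Same-numbered libraries deviated together by 0.184 and 0.323 for replicates 2 and 3, but so did NALM6 replicate 2 and REH replicate 1 (0.328), which share no number. The deviations of the 2 NALM6 libraries from their mean mirror each other. These correlations therefore all rest on 1 NALM6 contrast and cannot decide whether numbers pair. The labels tie nothing else to a number. With the replicate block 1807, 1679, 390 and 130 regions were called, and 3017 of the 3147 calls were kept. Among the 5 libraries number 1 occurs only in REH, so the block takes up REH replicate 1. The fit without that library gave the same 2-fold counts (390 and 130) and the same median difference (-0.013322). The block also left little spread to estimate the error from. Its counts therefore do not show that the calls hold under pairing.

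Regions called in 1 line numbered 681 (REH) and 612 (NALM6) with the same number of peaks per library, 91 (NALM6) when NALM6 replicate 1 had to have a peak, and 372 to 616 and 341 to 1336 without 1 library. Genes with a peak differed by 4.09 points with NALM6 replicate 1 (exact p = 0.7) and by -6.80 to 1.18 without 1 library.

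Of 80 named regions tested, 35 kept their call under each of the 14 to 18 alternatives that gave them a value and 45 lost it somewhere. The sign turned for CCND3 (-0.046) and XBP1 (0.22) with the mean per base, CD74 with the maximum (0.011) and with NALM6 replicate 1 (0.40), and ICAM3 with the maximum (-0.037) and the mean per base (-0.0031).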
